A study of Mus musculus with 7 samples.

Results

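The globin genes encode the protein chains of haemoglobin, the oxygen carrier of red cells. Each haemoglobin molecule joins alpha-type and beta-type chains, made from separate gene clusters. In the mouse, Hba-x (zeta) of the alpha cluster and Hbb-y (epsilon y) and Hbb-bh1 (beta h1) of the beta cluster are embryonic genes, used mainly by the primitive red cells of the yolk sac. Hba-a1 and Hba-a2 of the alpha cluster and Hbb-bs and Hbb-bt of the beta cluster are adult genes, used by the definitive red cells that the fetal liver and later the bone marrow produce. Blood stem cells hold little globin RNA, and the genes reach very high levels late in red cell formation, under Gata1, Klf1 and Tal1. The members were chosen by gene symbol as these 7 genes, and 6 of the 7 had a row among the 22680 genes of the deposited table. Hbb-bt had no row under its own symbol and is not analysed here.

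RNA was sequenced from cells sorted out of C57BL/6 mouse fetal livers at 13.5 days post coitum, a stage at which the liver is the main blood-forming organ. There were 3 libraries of Uhrf1-/- LSK cells, 1 library of wild-type LK cells and 3 libraries of wild-type LSK cells. Uhrf1 encodes a protein that recognises hemimethylated DNA and recruits the maintenance methyltransferase Dnmt1, and the labels do not say how the deletion was made. LSK cells carry Sca-1 and Kit without lineage markers and include the stem cells, and LK cells carry Kit without Sca-1 and are more advanced progenitors. All LSK libraries share strain, age, tissue and sort and differ in genotype, while the LK library was wild type and had no replicate. The labels do not say which animals went into each library, so the p-values reflect only how these libraries varied, which may be technical. In such sorted pools, fewer cells of a type and less RNA per cell cannot be told apart.

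The libraries had estimated totals of 16808525 to 25803006 reads. Uhrf1 RNA was 10.2, 8.78 and 18.6 FPKM in Uhrf1-/- LSK libraries, against 63.0, 66.8 and 113 FPKM in wild-type LSK libraries. FPKM is the number of read fragments scaled by transcript length and library size, and thus a level per length. Uhrf1 was lower by a log2 fold change of -2.62 (SE 0.34, limma adjusted p = 0.018, and up to 0.107 with 1 library left out). Ly6a, which encodes Sca-1, was 36.9 to 96.4 FPKM in Uhrf1-/- LSK, 0.321 FPKM in LK and 26.4 to 56.8 FPKM in wild-type LSK, and Kit was at least 24.4 FPKM in every library. Wild-type LSK replicate 2 stood apart with 4.78% of its count values in 85 ribosomal protein genes, against 10.7% to 15.8% in the other 6 libraries.

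The sequences show which of these genes reads can tell apart. The coding sequences of Hba-a1 and Hba-a2 (429 bases) differ at 1 base, C381T, and those of Hbb-bs and Hbb-bt (444 bases) at 1 base, C417T, counted from the first base of the start codon. The longest stretch without a difference was 380 bases for the alpha pair and 416 bases for the beta pair. The stretches around these bases follow, from GENCODE M21 transcripts on GRCm38, 5′ to 3′ in the sense of the gene, with the differing base in capitals. They cover coding bases 356 to 406 of the alpha genes and 392 to 442 of the beta genes.
Hba-a1: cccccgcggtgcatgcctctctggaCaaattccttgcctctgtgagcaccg
Hba-a2: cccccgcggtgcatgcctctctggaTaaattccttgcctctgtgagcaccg
Hbb-bs: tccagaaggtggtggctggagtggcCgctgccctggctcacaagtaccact
Hbb-bt: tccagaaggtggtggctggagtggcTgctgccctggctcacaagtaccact
The embryonic genes are far from their adult relatives. Hba-x matched Hba-a1 at 62.0% of coding bases with no identical run above 18 bases. Hbb-bh1 and Hbb-y matched Hbb-bs at 74.1% and 74.3% with runs of at most 22 bases, and each other at 76.4% with runs of at most 26 bases. Within the coding sequence, embryonic reads can therefore be told from adult reads, whereas the copies of an adult pair differ at 1 base. The untranslated parts were not compared.

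The alpha cluster lies on chromosome 11 of GRCm38 in the order Hba-x (32276600 to 32278116), Hba-a1 (32283672 to 32284486) and Hba-a2 (32296492 to 32297310), all on the plus strand. The beta cluster lies on the minus strand of chromosome 7, with Hbb-y (103851754 to 103853207), Hbb-bh1 (103841638 to 103843162), Hbb-bs (103826523 to 103827928) and Hbb-bt (103812524 to 103813923) in the order of transcription. The 250 bases before the start of 4 members are shown because the Hba-a1 and Hbb-bs rows stood far higher in LK than in LSK cells and Hba-x and Hbb-y did not. They come from RefSeq on GRCm38.p6, 5′ to 3′ in the sense of the gene. Capitals mark 4 motifs, searched on both strands. CACCC is the core of the motif that Klf1 binds in red cells. The CCAAT box is found before many genes and is bound by the factor NF-Y. TATAA, the TATA box, places the start of transcription in many strongly expressed genes. GATAA is the core that GATA factors such as Gata1 recognise.
Hba-a1, chr11:32283422-32283671, plus strand: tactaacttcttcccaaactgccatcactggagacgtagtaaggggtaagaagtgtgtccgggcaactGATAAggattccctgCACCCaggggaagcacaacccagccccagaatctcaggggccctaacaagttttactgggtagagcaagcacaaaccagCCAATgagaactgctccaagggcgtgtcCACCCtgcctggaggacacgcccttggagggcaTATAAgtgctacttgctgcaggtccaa
Hba-x, chr11:32276350-32276599, plus strand: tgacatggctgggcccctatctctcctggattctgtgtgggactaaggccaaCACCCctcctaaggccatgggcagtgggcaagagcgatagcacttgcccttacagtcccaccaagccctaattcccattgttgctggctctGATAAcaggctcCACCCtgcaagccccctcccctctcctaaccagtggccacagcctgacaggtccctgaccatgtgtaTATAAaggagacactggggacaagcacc
Hbb-bs, chr7:103827929-103828178, minus strand: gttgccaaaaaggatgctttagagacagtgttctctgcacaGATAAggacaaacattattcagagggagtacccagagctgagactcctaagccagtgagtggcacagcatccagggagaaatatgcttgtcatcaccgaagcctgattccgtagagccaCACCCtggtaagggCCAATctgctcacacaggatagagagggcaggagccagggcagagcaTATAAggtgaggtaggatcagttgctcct
Hbb-y, chr7:103853208-103853457, minus strand: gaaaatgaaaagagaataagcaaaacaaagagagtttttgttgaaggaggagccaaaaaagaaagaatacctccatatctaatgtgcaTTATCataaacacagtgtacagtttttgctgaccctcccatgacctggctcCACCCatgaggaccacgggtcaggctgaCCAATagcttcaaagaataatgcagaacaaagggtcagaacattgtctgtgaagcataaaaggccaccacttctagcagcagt
Both adult promoters held all 4 motifs, with 2 matches to the Klf1 core in Hba-a1 and 1 in Hbb-bs. Hba-x held the Klf1 core at 2 places, the TATA box and the GATA core, and its window has no exact CCAAT. Hbb-y held the Klf1 core, the CCAAT box and the GATA core, and its window has no exact TATAA. No matches overlapped. Of 32851 RefSeq promoter windows of this length, 52.0% held the Klf1 core, 33.8% the CCAAT box, 22.8% the TATA box and 22.6% the GATA core. The windows of Hba-a1 and Hba-a2 were identical over the 247 bases they share, offset by 3 bases. Hbb-bt held all 4 motifs, and Hbb-bh1 is named only.

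Adult alpha-globin RNA was low and uneven in LSK cells and did not separate the genotypes. Hba-a1 was 4.24, 28.9 and 11.3 FPKM in Uhrf1-/- LSK, 663 FPKM in LK, and 79.5, 5.07 and 4.91 FPKM in wild-type LSK. A single wild-type library, replicate 1, was above all the others of its fraction, and the Uhrf1-/- values lay inside the wild-type range but for replicate 1. Hba-a1 averaged 14.8 ± 12.7 FPKM in Uhrf1-/- LSK and 29.8 ± 43.0 FPKM in wild-type LSK (SD, n = 3 each). Its log2 fold change was -0.19 (SE 1.29, 95% interval -3.49 to 3.10, limma adjusted p = 0.990). Hba-a2 was 32.0, 15.5 and 16.2 FPKM in Uhrf1-/- LSK, 99.0 FPKM in LK, and 59.2, 35.7 and 8.01 FPKM in wild-type LSK. The Uhrf1-/- libraries all lay inside the wild-type range. Hba-a2 averaged 21.2 ± 9.32 FPKM in Uhrf1-/- LSK and 34.3 ± 25.6 FPKM in wild-type LSK (SD, n = 3 each), with a log2 fold change of -0.36 (SE 0.68, 95% interval -1.94 to 1.22, limma adjusted p = 0.958). The direction of both rested on wild-type LSK replicate 1. Without it the log2 fold change was 1.06 for Hba-a1 and 0.21 for Hba-a2. Without Uhrf1-/- replicate 1 that of Hba-a1 was 0.43.

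**Figure D1:**
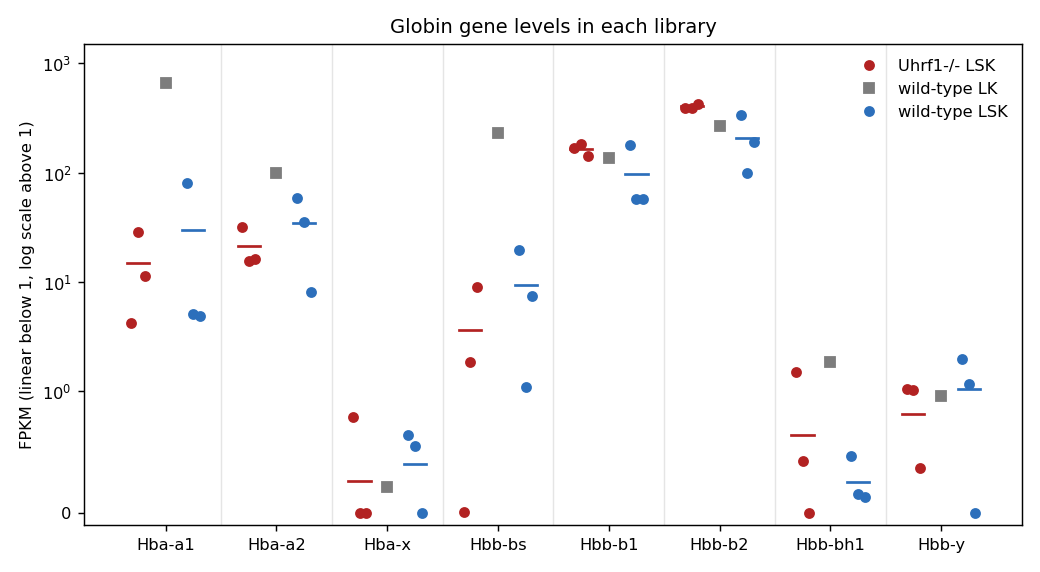
FPKM of 6 globin genes and of Hbb-b1 and Hbb-b2 (vertical axis, linear below 1 and logarithmic above) in 3 Uhrf1-/- LSK libraries (red), the LK library (grey square) and 3 wild-type LSK libraries (blue), with bars at the LSK means. The LK library was above all 6 LSK libraries for Hba-a1, Hba-a2, Hbb-bs and Hbb-bh1, and the embryonic genes stayed at or under 1.99 FPKM in every library.

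Since the alpha copies are near-identical, their sum is the firmer value. The estimated reads of Hba-a1 alone were a whole number (within 0.02 reads) in 0 of 7 libraries, whereas the sum with Hba-a2 was whole in 6 of 7. The 2 rows thus divided a shared pool of reads. Hba-a1 took 11.7%, 65.1% and 41.2% of that pool in Uhrf1-/- LSK, 86.9% in LK, and 56.9%, 12.4% and 37.7% in wild-type LSK. The split varied widely within each genotype and is uncertain as a measure of either copy. The pool itself held 209, 252 and 175 reads in Uhrf1-/- LSK, 6602 reads in LK, and 787, 339 and 126 reads in wild-type LSK. Summed alpha FPKM was 36.2, 44.4 and 27.5 in Uhrf1-/- LSK, 762 in LK, and 139, 40.7 and 12.9 in wild-type LSK, so the LSK groups overlapped.

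The row of the adult beta gene Hbb-bs had lower means in both LSK groups than either alpha row, but it divided a pool of reads with a row named Hbb-b1. That pool held 1347, 1476 and 1351 reads in Uhrf1-/- LSK, 4284 in LK, and 1539, 653 and 862 in wild-type LSK. It was above the alpha pool in every LSK library. The Hbb-bs row alone was 0.0083, 1.85 and 8.95 FPKM in Uhrf1-/- LSK, 232 FPKM in LK, and 19.4, 1.10 and 7.43 FPKM in wild-type LSK. The LSK groups overlapped in this row, and Uhrf1-/- replicate 1 held almost none in it. In wild-type replicate 3 it stood above Hba-a1 (4.91 FPKM). Hbb-bs averaged 3.60 ± 4.72 FPKM in Uhrf1-/- LSK and 9.30 ± 9.29 FPKM in wild-type LSK (SD, n = 3 each), with a log2 fold change of -1.22 (SE 1.19, 95% interval -4.22 to 1.79, limma adjusted p = 0.942). Over leaving out each library, its log2 fold change lay between -2.10 and -0.42. These values describe the row and carry the division of reads, so they are uncertain as a measure of the gene.

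Most adult beta reads stood in rows named Hbb-b1 and Hbb-b2, singled out after their values were seen. These are the names of the adult beta genes of the other common mouse haplotype, and C57BL/6 carries the haplotype with Hbb-bs and Hbb-bt, so what the 2 rows count in this strain is uncertain. Hbb-b1 was 166, 181 and 143 FPKM in Uhrf1-/- LSK, 137 FPKM in LK, and 178, 56.8 and 56.7 FPKM in wild-type LSK. The groups overlapped through wild-type replicate 1, and the log2 fold change was 0.96 (SE 0.43, limma adjusted p = 0.895). Hbb-b2 was 393, 389.9 and 427 FPKM in Uhrf1-/- LSK, 267 FPKM in LK, and 335, 98.6 and 190.3 FPKM in wild-type LSK. All 3 Uhrf1-/- libraries were above all 3 wild-type libraries, as were the Uhrf1-/- libraries for 4.61% of the genes tested. Hbb-b2 differed by a log2 fold change of 1.12 (SE 0.43) that did not pass the threshold (limma adjusted p = 0.748, and 0.164 in a fit blocked by replicate number).

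Hbb-bs and Hbb-b1 also divided shared reads, since Hbb-bs alone was whole in 1 of 7 libraries and its sum with Hbb-b1 in 7 of 7. Hbb-b2 was whole on its own in 7 of 7. Of the reads in Hbb-bs and Hbb-b1 together, Hbb-bs took 0.00503%, 1.02% and 6.05% in Uhrf1-/- LSK, 63.6% in LK, and 9.94%, 1.92% and 11.8% in wild-type LSK. The sum of the 3 rows was 559, 573 and 578 FPKM in Uhrf1-/- LSK, 636 FPKM in LK, and 533, 157 and 254 FPKM in wild-type LSK. It averaged 570.2 ± 9.87 FPKM in Uhrf1-/- LSK and 315 ± 195 FPKM in wild-type LSK (SD, n = 3 each). The groups did not overlap, by a narrow gap to wild-type replicate 1, and no test was made of a sum over chosen rows. Wild-type replicate 2, with the lowest sum, was also the library with the low ribosomal protein share, and the part of that share in its globin level was not tested.

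**Figure D2:**
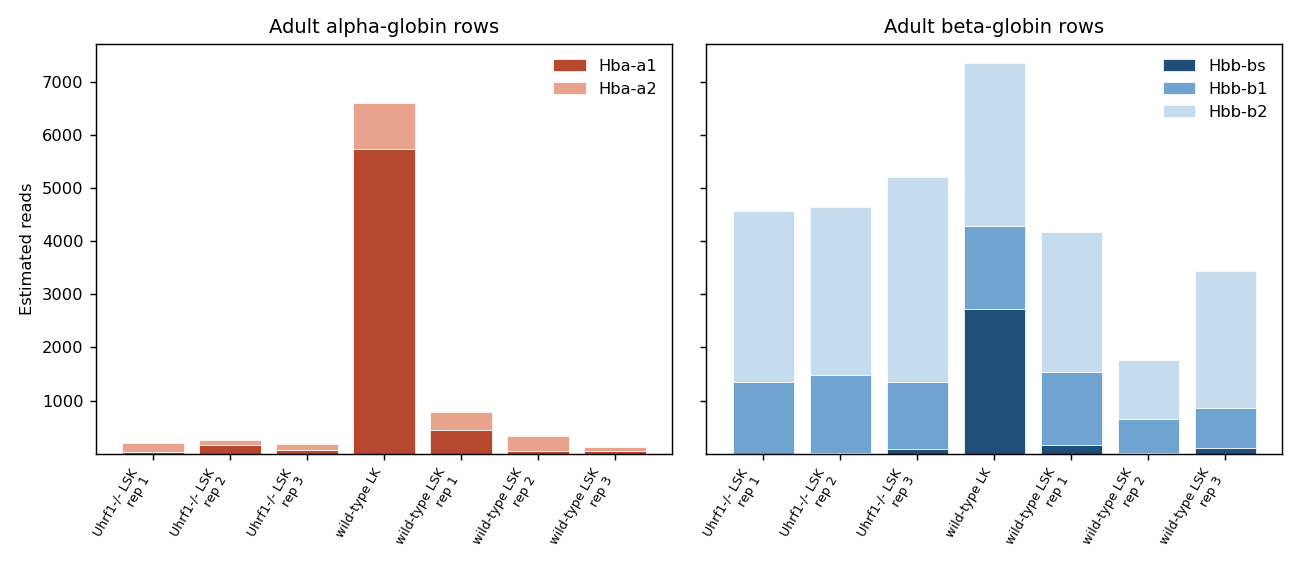
Estimated reads (vertical axis) in the adult alpha rows Hba-a1 and Hba-a2 (left) and the adult beta rows Hbb-bs, Hbb-b1 and Hbb-b2 (right), stacked, in each of the 7 libraries. The alpha rows held 6602 reads in LK and at most 787 in any LSK library, while the beta rows held 7353 reads in LK and 1769 to 5217 in LSK libraries.

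The ratio of summed alpha to summed beta FPKM was 0.0648, 0.0774 and 0.0476 in Uhrf1-/- LSK, 1.20 in LK, and 0.260, 0.260 and 0.0508 in wild-type LSK. In LSK cells of both genotypes the summed beta rows thus stood far above the alpha rows, and in LK cells the sums were close. This rests on Hbb-b1 and Hbb-b2, which held most beta reads in LSK and whose meaning in this strain is uncertain. Over the Hbb-bs row alone, summed alpha FPKM was 3.08 to 4373 times as high in Uhrf1-/- LSK, 3.29 in LK and 1.74 to 37.2 in wild-type LSK. That row in turn depends on the division of reads with Hbb-b1. In the ratio of the sums the genotypes overlapped through wild-type replicate 3. Within replicate numbers it was lower in Uhrf1-/- LSK in 3 of 3 pairs, by little in replicate 3. No test was made of this ratio.

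The embryonic genes were near the detection limit in every library, with no separation by genotype. Hba-x, the zeta chain of the earliest haemoglobins, was 0.787, 0 and 0 FPKM in Uhrf1-/- LSK, 0.208 FPKM in LK, and 0.643, 0.551 and 0 FPKM in wild-type LSK. It was listed at 0 in 2 Uhrf1-/- libraries and 1 wild-type LSK library. Hbb-bh1 was 1.51, 0.425 and 0 FPKM in Uhrf1-/- LSK, 1.86 FPKM in LK, and 0.465, 0.158 and 0.133 FPKM in wild-type LSK. Its highest LSK value was in Uhrf1-/- replicate 1, and the groups overlapped. Hbb-y was 1.04, 1.04 and 0.369 FPKM in Uhrf1-/- LSK, 0.964 FPKM in LK, and 1.99, 1.18 and 0 FPKM in wild-type LSK. The wild-type values surrounded all 3 Uhrf1-/- values. None of the 3 genes reached the mean of 1 FPKM over the 6 LSK libraries needed for the test. Differences of mean log2(FPKM + 1) between Uhrf1-/- and wild-type LSK were -0.17 for Hba-x, 0.30 for Hbb-bh1 and -0.06 for Hbb-y. The sign of Hbb-bh1 turned without Uhrf1-/- replicate 1 (-0.059). That of Hbb-y turned without Uhrf1-/- replicate 3 (0.13), wild-type replicate 1 (0.27) or wild-type replicate 2 (0.046).

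These levels rest on few reads, and each embryonic row held whole reads in 7 of 7 libraries. Hba-x had 5, 0 and 0 reads in Uhrf1-/- LSK, 2 in LK, and 4, 5 and 0 in wild-type LSK. Hbb-bh1 had 14, 4 and 0 reads in Uhrf1-/- LSK, 23 in LK, and 4, 2 and 2 in wild-type LSK. Hbb-y had 10, 10 and 4 reads in Uhrf1-/- LSK, 12 in LK, and 18, 15 and 0 in wild-type LSK. In replicate 3 of either LSK genotype all 3 genes together had few reads, 4 in Uhrf1-/- and 2 in wild-type cells, against 14 to 29 in the other LSK libraries.

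**Figure D3:**
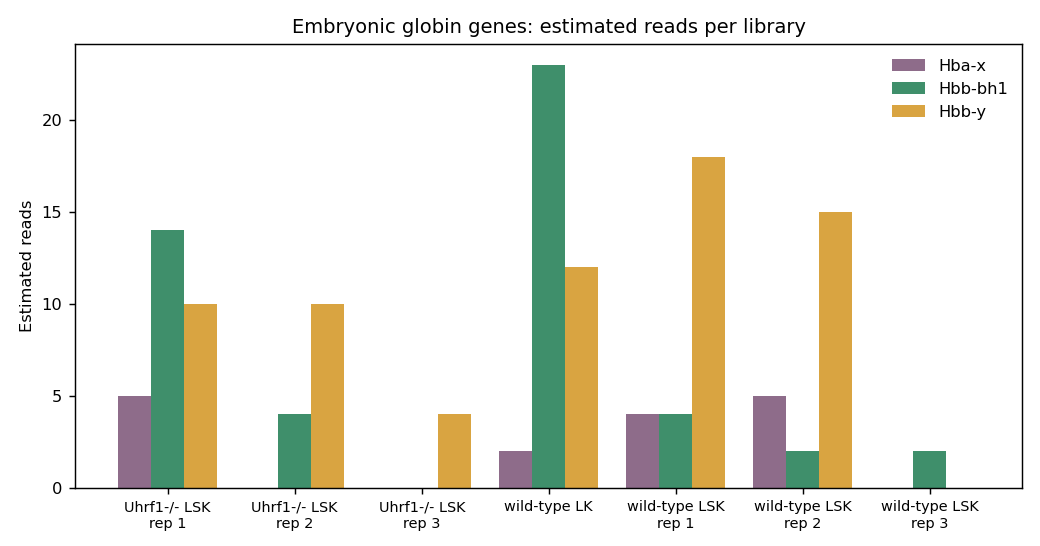
Estimated reads (vertical axis, linear) of Hba-x, Hbb-bh1 and Hbb-y in each of the 7 libraries. No library held more than 23 reads of any embryonic globin gene, and replicate 3 of both LSK groups held the fewest.

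The embryonic share of the summed FPKM of the 6 members was 8.42%, 3.06% and 1.0% in Uhrf1-/- LSK, 0.304% in LK, and 1.92%, 4.31% and 0.649% in wild-type LSK. With Hbb-b1 and Hbb-b2 added to the total it was 0.556%, 0.236% and 0.0609% in Uhrf1-/- LSK, 0.217% in LK, and 0.459%, 0.947% and 0.0497% in wild-type LSK. The groups overlapped on either total, so the share depended more on which adult rows were counted than on genotype. Of the remaining globin rows, Hbb-bh2, Hbq1a and Mb (myoglobin) were listed at 0 in all 7 libraries. Hbq1b was 0.314 FPKM in Uhrf1-/- replicate 1, 0.611 FPKM in LK, and at 0 in the other 5 libraries. Cygb was 0.196, 0.0332 and 0.0601 FPKM in Uhrf1-/- LSK (6, 1 and 2 reads), 0.0492 FPKM in LK and at 0 in all wild-type LSK libraries. Ngb was at most 0.185 FPKM in any library. Both were too low to be tested.

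Among the 3 members that could be tested, none was called in either direction (limma, adjusted p below 0.05), and none had an unadjusted p below 0.05. Of all 10608 genes tested, 12 were called higher (0.113%) and 6 lower (0.0566%) in Uhrf1-/- LSK, 0.17% in either direction, and 5.57% had an unadjusted p below 0.05. In the fit blocked by replicate number 1.23% were called higher and 0.83% lower, 2.06% in either direction, and again no member was called (adjusted p 0.753 for Hba-a2, 0.815 for Hbb-bs and 0.983 for Hba-a1). With so small a background, 0 of 3 says little about the members as a group. The LSK groups overlapped for all 3, while over all genes tested they did not overlap for 10.8%, with 4.61% higher and 6.16% lower in Uhrf1-/- LSK. The median log2 fold change was -0.36 over the 3 members and -0.03 over all genes tested. Hba-a1 and Hba-a2 divided a shared pool of reads, so the 3 rows are not separate readings. The rows with most adult beta reads, Hbb-b1 and Hbb-b2, are not members and went the other way. Their log2 fold changes were 0.96 and 1.12, with unadjusted limma p of 0.048 and 0.026 and adjusted p of 0.895 and 0.748.

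The regulators of globin genes did contain called genes. Of 25 listed regulators 24 were tested, and 2 rose and 0 fell in Uhrf1-/- LSK, with 4 and 0 under the block. The list's median log2 fold change was 0.12. Gata1, the transcription factor that activates both globin clusters, was 54.3, 55.5 and 68.3 FPKM in Uhrf1-/- LSK, 133 FPKM in LK, and 8.01, 9.18 and 2.09 FPKM in wild-type LSK. Every Uhrf1-/- library was above every wild-type LSK library, with a log2 fold change of 3.19 (SE 0.42, limma adjusted p = 0.021). Gata2, the GATA factor of stem and early progenitor cells, was 116, 103 and 119 FPKM in Uhrf1-/- LSK, 24.7 FPKM in LK, and 33.4, 41.0 and 23.5 FPKM in wild-type LSK. It too was higher in 3 of 3 Uhrf1-/- libraries (log2 fold change 1.79, SE 0.28, limma adjusted p = 0.039). These calls depended on the number of libraries. That of Gata1 was lost without Uhrf1-/- replicate 2 or 3 or wild-type replicate 1 or 2 (limma adjusted p 0.0619 to 0.104) and that of Gata2 without any 1 library (0.0957 to 0.129), with log2 fold changes of 2.65 to 3.51 and 1.58 to 1.97. With no filter on low values the adjusted p was 0.156 for Gata1 and 0.150 for Gata2.

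Klf1, which binds the CACCC box of the adult beta-globin promoter, was 34.3, 38.9 and 33.6 FPKM in Uhrf1-/- LSK, 307 FPKM in LK, and 27.1, 20.1 and 2.25 FPKM in wild-type LSK. The LSK groups did not overlap, but the log2 fold change of 1.55 (SE 0.77) did not pass the threshold (limma adjusted p = 0.942). Tal1, the partner of Gata1, had a log2 fold change of 0.65 (limma adjusted p = 0.850). Gfi1b, a repressor needed for red cell formation, averaged 110 ± 17.4 FPKM in Uhrf1-/- LSK and 47.4 ± 11.9 FPKM in wild-type LSK (SD, n = 3 each) and was called under the block only (log2 fold change 1.21, limma adjusted p = 0.179, and 0.010 with the block). Zfpm1, the Gata1 cofactor FOG1, averaged 68.7 ± 43.3 FPKM in Uhrf1-/- LSK and 25.3 ± 22.2 FPKM in wild-type LSK. Its groups overlapped, and it was also called under the block only (log2 fold change 1.61, limma adjusted p = 0.942, and 0.00090 with the block). Both calls were lost when replicate 2 was left out of the blocked fit (limma adjusted p 0.118 for each). The repressors of embryonic globin genes were not called. Bcl11a was 38.2 to 41.9 FPKM in Uhrf1-/- LSK, 68.5 FPKM in LK and 45.0 to 57.9 FPKM in wild-type LSK without overlap of the LSK groups (log2 fold change -0.36, limma adjusted p = 0.942). Zbtb7a had a log2 fold change of 0.22, and Myb, a factor of progenitor growth, one of -0.11, with limma adjusted p of 0.944 and 0.971. Sox6 was under 1 FPKM in every library and was not tested.

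**Figure D4:**
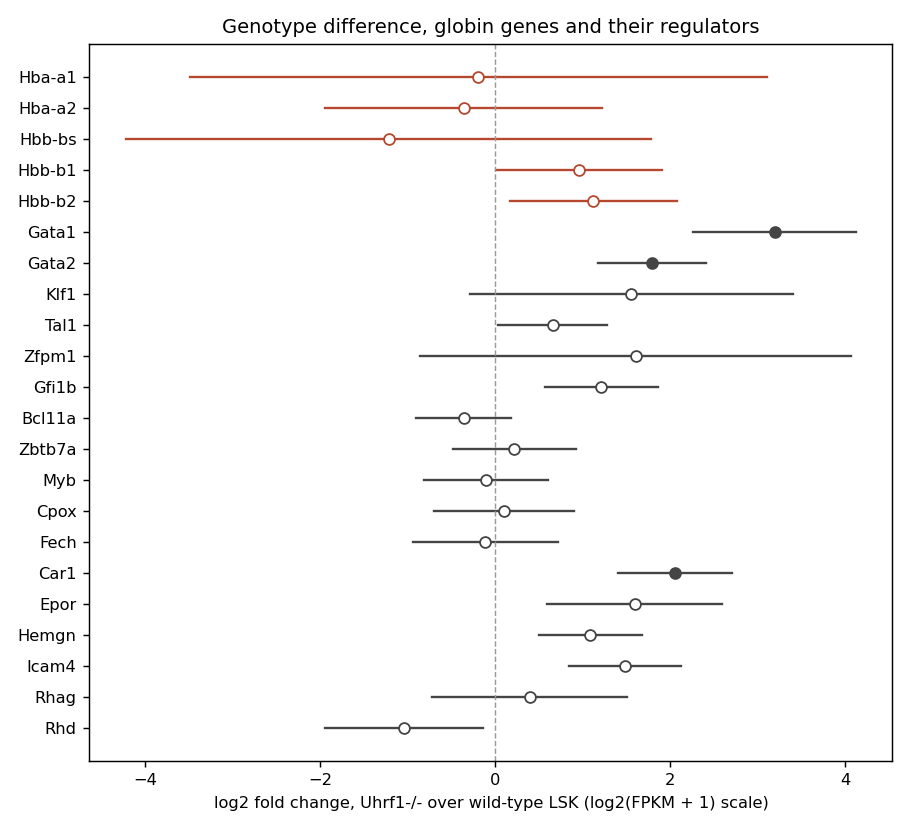
Log2 fold change of Uhrf1-/- over wild-type LSK (horizontal axis, log2(FPKM + 1) scale) with 95% intervals for globin rows (red) and related genes (dark grey), filled where the limma adjusted p without a block was below 0.05. The intervals of Hba-a1, Hba-a2 and Hbb-bs span 0, and Gata1, Gata2 and Car1 are filled.

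Genes that work alongside globin in the red cell were mixed. Of 9 tested genes of haem synthesis and globin handling, 0 were called and 0 had an unadjusted p below 0.05 (limma), with a median log2 fold change of 0.07. Alas2, which starts haem synthesis in red cells, was 0 to 0.175 FPKM in Uhrf1-/- LSK, 1.84 FPKM in LK and 0.0225 to 0.520 FPKM in wild-type LSK. Ahsp, the chaperone of free alpha chains, had no row. Of 12 tested genes of red cell maturation, 1 rose, and 4 rose and 1 fell under the block, with a median log2 fold change of 0.44. Car1, a carbonic anhydrase of red cells, averaged 9.74 ± 0.999 FPKM in Uhrf1-/- LSK and 1.66 ± 0.785 FPKM in wild-type LSK (SD, n = 3 each). Its log2 fold change was 2.06 (limma adjusted p = 0.027, 0.0659 to 0.107 without any 1 library and 0.129 with no filter on low values). Under the block Epor, the erythropoietin receptor, Hemgn and Icam4 also rose, with log2 fold changes of 1.59, 1.09 and 1.49 (limma adjusted p 0.027, 0.015 and 0.0033 with the block, and 0.325, 0.191 and 0.0952 without it). Rhd, an Rh blood group protein, fell under the block by 1.04 on the log2 scale (limma adjusted p = 0.047, and 0.771 without it). These 4 calls were lost when replicate 2 was left out of the blocked fit, with limma adjusted p of 0.181 to 0.639. The late membrane protein Slc4a1 (band 3) was at most 0.0621 FPKM in any LSK library.

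Markers of other cells differed between libraries too. The summed FPKM of 8 late red cell markers was 9.76 to 10.2 in Uhrf1-/- LSK, 137 in LK and 2.22 to 8.63 in wild-type LSK, so it was higher in the Uhrf1-/- libraries, as was the beta sum. Slc4a1 was at or near 0 in all 6 LSK libraries. The summed FPKM of 9 macrophage markers was 36.4, 38.2 and 2.54 in Uhrf1-/- LSK, 1.28 in LK, and 149.9, 74.4 and 1.21 in wild-type LSK. It was highest in wild-type replicate 1, where Hba-a1 was also highest among LSK libraries, and C1qa, which encodes a complement chain made by macrophages, was 26.3 FPKM there. Elsewhere the marker sum and Hba-a1 did not follow each other. Hba-a1 was 5.07 FPKM in wild-type replicate 2 (sum 74.4), 4.24 FPKM in Uhrf1-/- replicate 1 (sum 36.4) and 663 FPKM in LK (sum 1.28). In replicate 3 of both genotypes 4 (Uhrf1-/-) and 5 (wild type) of the 9 markers were at 0. The summed FPKM of 7 hepatoblast markers was 23.7 to 29.0 in Uhrf1-/- LSK, 34.3 in LK and 25.6 to 38.5 in wild-type LSK. Within these, Alb was at most 2.62 FPKM and Afp at most 3.73 FPKM in any library. The part of any of these cells in the globin levels was not tested.

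The wild-type LK library held far more adult alpha-globin RNA than the wild-type LSK libraries, and at most 1.86 FPKM of any embryonic globin. With 1 LK library there is no replicate check and no test. Summed alpha FPKM in LK was 11.9 times the wild-type LSK mean and 5.49 times the highest LSK library. Summed beta FPKM in LK was 2.02 times the wild-type LSK mean and 1.10 times the highest LSK library. The pool of Hbb-bs and Hbb-b1 held 4284 reads in LK, against 1539, 653 and 862 in wild-type LSK, or 4.21 times their mean. The values of single rows rest in addition on how the pools were divided, which differed between LK and LSK. Hba-a1 at 663 FPKM was 22.2 times the wild-type LSK mean and 8.34 times the highest LSK library. Hbb-bs at 232 FPKM was 24.9 times the wild-type LSK mean and 12.0 times the highest LSK library. Hba-a2 at 99.0 FPKM was 2.89 times the wild-type LSK mean and 1.67 times the highest LSK library. On the log2(FPKM + 1) scale LK exceeded the wild-type LSK mean by 5.54 for Hba-a1, 5.03 for Hbb-bs and 1.88 for Hba-a2. A difference of at least 2 was reached by 2 of these 3 genes and by 1.59% of the 10649 genes that averaged 1 FPKM or more over the 7 libraries. All 3 were above all 6 LSK libraries, as were 29% of those genes. Which of the 3 reached that difference depends on the division of reads with Hba-a2 and Hbb-b1.

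On the same scale, which compresses low values, the embryonic genes and the Hbb-b1 and Hbb-b2 rows differed less between LK and wild-type LSK. LK minus wild-type LSK was 1.20 for Hbb-bh1, 0.07 for Hbb-y and -0.18 for Hba-x, and 0.71 for Hbb-b1 and 0.53 for Hbb-b2. Unscaled, Hbb-bh1 at 1.86 FPKM was 7.38 times the wild-type LSK mean and 1.24 times the highest LSK library, on 23 reads in LK against 4, 2 and 2 in wild-type LSK. Hbb-b1 and Hbb-b2 in LK lay inside the range of the wild-type LSK libraries. Uhrf1-/- LSK cells can be set beside LK cells in the same way. LK minus Uhrf1-/- LSK was 5.74 for Hba-a1, 6.25 for Hbb-bs, 2.25 for Hba-a2, -0.25 for Hbb-b1 and -0.59 for Hbb-b2. The 2 sets of differences share the LK library.

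Other red cell genes also stood higher in LK. Of 16 red cell maturation genes averaging 1 FPKM or more, 13 exceeded wild-type LSK by at least 2 on the log2(FPKM + 1) scale, and the median was 3.29, against 0.07 over all genes. Car1 exceeded it by 4.78, Icam4 by 4.37, Epor by 3.70 and Hemgn by 2.88. Of 9 haem genes 3 did, with a median of 1.52. They were Cpox at 3.75, Fech at 2.71 and Alad at 2.13, named after their values were seen. Of 24 regulators 2 did, Klf1 at 4.63 and Gata1 at 4.35, with a median of 0.19. Bcl11a exceeded it by 0.42 and Myb by 0.93.

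**Figure D5:**
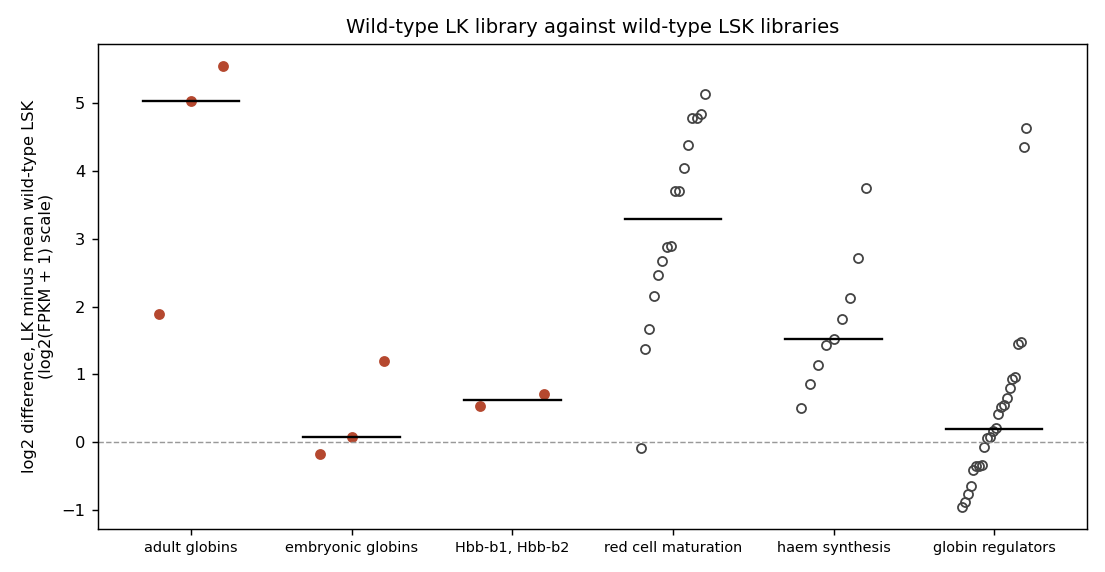
Difference of log2(FPKM + 1) between the LK library and the mean of the wild-type LSK libraries (vertical axis) for globin rows (filled) and for genes of 3 lists averaging 1 FPKM or more (open), with bars at the medians. Hba-a1 and Hbb-bs lie above 5, the embryonic genes lie between -0.18 and 1.20, and the median of the red cell maturation genes is 3.29.

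Over the 7 libraries, the summed FPKM of Hba-a1, Hba-a2 and Hbb-bs was 36.2, 46.2 and 36.5 in Uhrf1-/- LSK, 994 in LK, and 158, 41.8 and 20.3 in wild-type LSK. The genes whose log2 levels followed it most closely among 10649 were Mt2 (Pearson r = 0.990), Sphk1 (0.974), Tnfrsf14 (0.973), C2cd4a (0.972) and Blvrb (0.969). Mt2, a metallothionein, was 16.6, 12.9 and 8.15 FPKM in Uhrf1-/- LSK, 627 FPKM in LK, and 85.1, 16.2 and 4.62 FPKM in wild-type LSK, with its highest LSK value in the same library as Hba-a1. For comparison, r was 0.825 for Klf1, 0.469 for Gata1, 0.359 for Hbb-b1 and 0.094 for Hbb-b2. The summed embryonic FPKM was most closely followed by Usp30 (r = 0.954), 1810033B17Rik (0.954), Tmem64 (0.948), Abt1 (0.943) and Rtn3 (0.933). These coefficients are descriptions over 7 points that share library and depth, and the adult ones lean on the single LK library, which lay far above the rest. The genes compared were filtered on a mean over all 7 libraries, LK included. Tnfrsf14 was 6.58 FPKM in LK and at most 1.65 FPKM in LSK libraries. C2cd4a was 4.33 FPKM in LK and at most 1.37 FPKM in LSK libraries. Both passed that filter only through LK.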

How the data were processed

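Per the file headers, the authors deposited 1 table of 22680 genes with a count column and an FPKM column for each of 7 libraries. The deposited count values include fractions, so they were treated as a scaled signal, totalling 15556959 to 21017402 per library. Per the submitters' processing notes, mm10 was the build and TopHat2 2.0.9 and Cufflinks 2.1.1 were among the tools. No source used here gives the annotation or says how reads matching several copies were shared out. Dividing each count column by its step gave estimated reads, and 98.2% to 98.6% of low values lay within 0.02 reads of a whole number. As single rows of near-identical copies are fractional, no count model was run.

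The genotype test used limma 3.58.1 (R 4.3.3) on log2(FPKM + 1) of the 6 LSK libraries, two-sided, with moderated variances (trend, robust). P-values were adjusted by Benjamini-Hochberg over all 10608 genes averaging 1 FPKM or more, at a threshold of 0.05. Such fold changes understate the change of low genes. For libraries with the same replicate number, deviations from their group's mean had correlations of 0.349, 0.332 and 0.645, all above 0.1. Unlike numbers also passed 0.1, with 0.213 for Uhrf1-/- replicate 1 and wild-type replicate 2, and 0.159 for Uhrf1-/- replicate 2 and wild-type replicate 1. Replicate 3 against any other number gave negative values. The correlations thus set replicate 3 apart but do not settle the pairing of replicates 1 and 2. The blocked fits read the numbers as pairs, a reading taken from the data because no label states what a number shares. The main fit had no block. The script was tested on simulated data. LK, the sums and the shares were given no test, and an exact test on 3 against 3 libraries cannot go below 0.1.

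The members and the gene lists (globin regulators, haem and globin handling, red cell maturation, macrophage, hepatoblast and late red cell markers) were chosen with earlier results of these data known. Genes were named if they were members, were called on a list with or without the block, stood on a fixed short list of regulators and markers, or were the 5 closest to the adult or embryonic sum, and some genes under this rule are not reported here. Alternatives were a replicate block, a pseudocount of 0.1, no filter, count values scaled to the library total, median-of-ratios scaling, all 7 libraries in one fit and leaving out each library.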

Additional observations from a re-analysis of the deposited data

How the results depend on the processing

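No member was called under any alternative run. Limma adjusted p over the alternatives lay between 0.479 and 1.0 for Hba-a1, 0.563 and 1.0 for Hba-a2, and 0.815 and 1.0 for Hbb-bs, and for Hbb-b1 and Hbb-b2 between 0.115 and 1.0 and between 0.164 and 1.0. Leaving out each library gave log2 fold changes of -0.83 to 1.06 for Hba-a1, -1.16 to 0.21 for Hba-a2 and -2.10 to -0.42 for Hbb-bs. The sign of Hba-a1 turned without Uhrf1-/- replicate 1 (0.43) and without wild-type replicate 1 (1.06), and that of Hba-a2 without wild-type replicate 1 (0.21) and, in a replicate block without replicate 2 added after seeing the data, to 0.033. Myb ranged from -0.44 to 0.065 and turned without Uhrf1-/- replicate 1 (0.017), wild-type replicate 2 (0.051) or wild-type replicate 3 (0.065) and in that added block (0.034). With a pseudocount of 0.1 Hba-x differed by -0.82 and Hbb-y turned to 0.40. Leaving out each library gave -0.059 to 0.60 for Hbb-bh1 and -0.51 to 0.27 for Hbb-y. With count values the mean alpha to beta ratio in Uhrf1-/- LSK was 0.0445. The cause of these shifts was not tested.

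With the replicate block, pairing libraries by number, 131 genes were called higher and 88 lower, including 4 regulators higher and 4 red cell genes higher and 1 lower, and no other list's count moved. The added block without replicate 2 called 13 genes higher and 7 lower, with 2 regulators and 1 red cell gene higher. With no filter on low values 0 of 16724 genes were called by limma, with 967 at an unadjusted p below 0.05, and 0 regulators and 0 red cell genes. With count values scaled to the library total 11 genes were lower. Leaving out each library gave 0 to 3 genes higher and 0 to 1 lower, 0 to 1 regulators and 0 to 0 red cell genes higher. Median-of-ratios scaling and 1 fit of all 7 libraries each gave 12 higher and 6 lower. Gata1, Gata2 and Car1 kept their sign in all of these. The values of the embryonic genes rest on only 0 to 23 reads per gene and library. Summed over the embryonic genes there were 2 reads in wild-type LSK replicate 3, the library with the most estimated reads (25803006). There were 26 in wild-type LSK replicate 1, the library with the fewest (16808525). What sets these numbers was not tested.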
